A study of Mus musculus with 4 samples.

Results

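Long-term and short-term haematopoietic stem cells of mouse bone marrow were compared by their gene expression, the CD34-positive against the CD34-negative cells of the KSL fraction. KSL cells carry c-Kit and Sca-1 and lack the markers of mature blood lineages (Lin-). The CD34- fraction (LT-HSC, CD34-c-Kit+Sca-1+Lin-) is labelled long-term and the CD34+ fraction (ST-HSC, CD34+c-Kit+Sca-1+Lin-) short-term. The series holds 2 further fractions, c-Kit+Lin- progenitors and differentiated Lin+ cells, which are used here as levels beside the comparison. The progenitor label does not name Sca-1, and a protocol text gives that fraction as Sca-1-negative, so its gate is uncertain. All 4 fractions came from 8-week-old female mice of the C57BL6 background, with no treatment or allele named. The labels do not say how many mice gave each fraction. From each, 10 ng of total RNA was amplified, labelled with Cy3 and hybridised to 1 Agilent array.

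Genes were members of the comparison when their probe was well above background in LT-HSC, in ST-HSC or in both, which held for 12617 of the 20284 genes named on the array. Both sides were measured for 11391 of them. A further 575 were above background in ST-HSC but not in LT-HSC with a bound above 0, 482 the reverse, and 169 were so dim that their direction could not be resolved. The other 7667 genes were not well above background on either array. A level below is the log2 signal of a gene's probe over the 75th percentile of its array, which lay at 192 intensity units in LT-HSC and 217 in ST-HSC. Levels are given in the order LT-HSC, ST-HSC, and a difference is ST-HSC minus LT-HSC on the same log2 scale. Levels of different genes come from different probes and are not compared. The ± value is the error that Feature Extraction estimated for the spots, with a median of 0.20 for a difference. It lies near this value for many genes and is larger for dim ones, and it is not a spread measured for the gene. Probes printed 10 times had a median SD across their spots within the array of 0.070 in LT-HSC and 0.061 in ST-HSC. Each fraction had 1 array, so no difference has a replicate check, no test or p-value is given, and precision is limited by having 1 array a fraction. A gene is called higher or lower when it differed by at least 2-fold. Where 1 side was not well above background, the difference is a lower bound and is given as at least N-fold. In sorted bulk fractions, fewer cells of a type and less RNA per cell cannot be told apart.

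Long-term stem cells are mostly out of cycle and can rebuild blood for the life of a transplanted host. Short-term stem cells and multipotent progenitors divide more often, rebuild blood for a limited time and begin to express genes of the mature lineages. CD34, a sialomucin of the cell surface, separates these cells in adult mice. Signals from the niche, among them thrombopoietin, Notch ligands, Wnt proteins, TGF-beta and retinoic acid, are known to bear on whether a stem cell rests or divides.

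Cd34 was higher in the fraction labelled CD34+, though its RNA was present in both fractions. The labels give c-Kit and Sca-1 as present in both, so they set no order for Kit or Ly6a. Of these, Ly6a was called lower in ST-HSC. The labels do not name the other markers below. Cd34 had levels of 7.34 and 8.53, a difference of 1.19 ± 0.20, and quantile normalization gave 0.985, under 2-fold. Kit, the receptor of stem cell factor, had 5.63 and 5.004, a difference of -0.63 ± 0.20, and Ly6a, which encodes Sca-1, 4.52 and 3.12, a difference of -1.40 ± 0.20. Procr, the endothelial protein C receptor that marks long-term stem cells, had 4.44 and 2.27, a difference of -2.17 ± 0.20. Vwf, von Willebrand factor, found in platelet-biased stem cells, had 5.14 and -0.13, a difference of -5.27 ± 0.21. Mpo, the myeloperoxidase of granulocyte precursors, had 6.70 and 10.12, a difference of 3.41 ± 0.20. Among other defining markers, Slamf1, which encodes CD150, was at 0.59 in LT-HSC and not well above background in ST-HSC, at least 15.8-fold lower. Hlf, a stem cell transcription factor, had 5.09 and 4.14, a difference of -0.95 ± 0.20, and Flt3, the receptor of multipotent progenitors, 4.35 and 5.81, a difference of 1.45 ± 0.20. Cd48, a surface marker absent from long-term stem cells by antibody, had RNA in both at 3.80 and 5.78, a difference of 1.98 ± 0.20.

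Of the 12617 genes, 733 were higher in ST-HSC by 2-fold or more, 5.81% of those compared, and 1136 were at least 2-fold lower, 9%. These shares are the background for the 2-fold counts of every list below. Counts of members above or below 0 have no such share beside them. Without bounds, 545 genes were higher and 746 lower. The lowest level above background, which limits a bound, was -2.94 in LT-HSC and -3.39 in ST-HSC. A bound could therefore call a gene lower at a dimmer level than it could call one higher. The part of this gap in the counts was not tested. Among measured genes, 67 were higher and 188 lower by 4-fold, 13 and 50 by 8-fold, and 4 and 10 by 16-fold. The median measured gene differed by 0.028, and the median size of a difference was 0.30. Calls depended on brightness, since 10.8% of the dimmest 3797 measured genes were lower and 6.19% higher, against 2.77% and 2.98% of the brightest 3797. Of 267 called genes with more than 1 compared probe, 256 (95.9%) had every probe on the same side of 0 and 174 (65.2%) had every probe past 2-fold. Across the measured genes, which are not independent replicates, Pearson's r between the arrays was 0.964. Scaling to the spike-in controls moved the median gene from 0.030 to 0.33, with 1326 genes higher and 778 lower, so that 63.0% of called genes were higher in place of 39.2%. Lists are therefore read against the median gene, and a list median that lies below 0 by less than that shift turns positive under spike-in scaling.

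**Figure D1:**
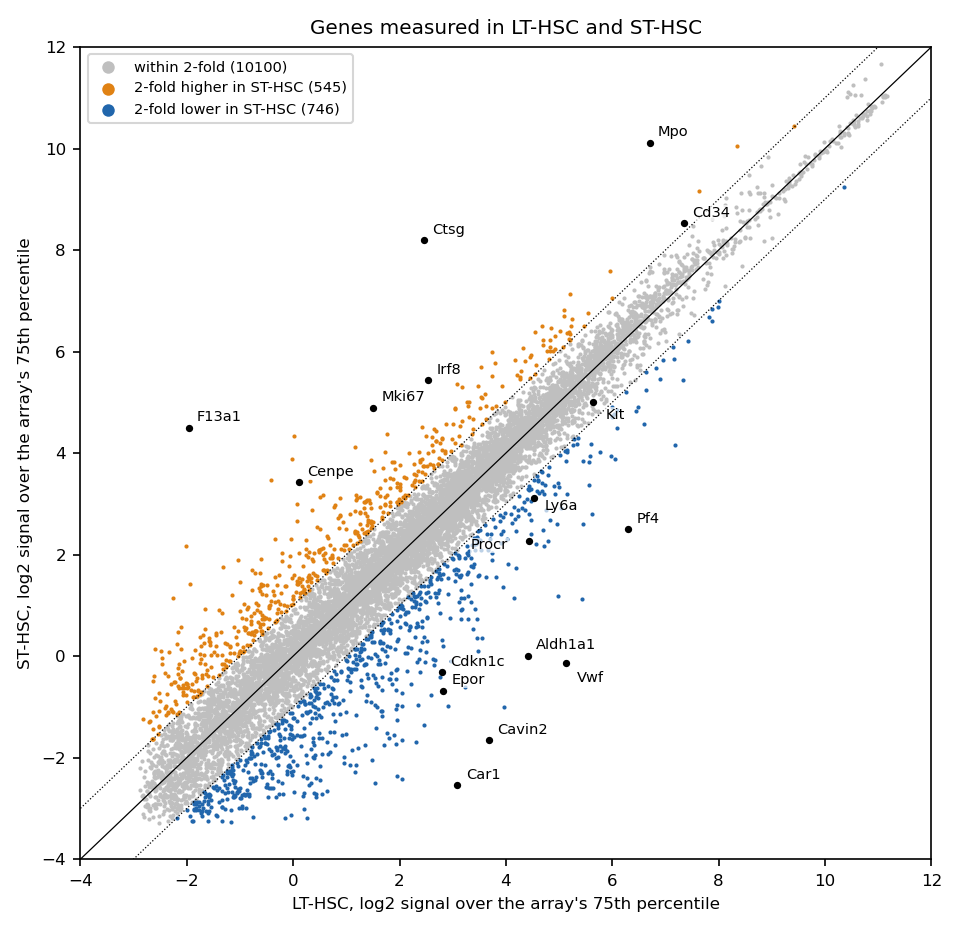
Levels of 11391 genes measured in both fractions, with LT-HSC on the horizontal and ST-HSC on the vertical axis, both as log2 signal over the array's 75th percentile, and lines at equality and at 2-fold. Orange points are at least 2-fold higher in ST-HSC (545) and blue points at least 2-fold lower (746). Cell division and myeloid genes such as Mki67 and Ctsg lie above the lines, and Vwf, Car1 and Cavin2 lie far below.

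Cell division genes were at higher levels in ST-HSC, and the difference was larger for mitosis than for DNA replication. Of 12 compared mitotic kinesin genes, 11 were higher with a median difference of 2.13, as were 31 of 32 spindle and cytokinesis genes (median 1.71) and 31 of 48 kinetochore and checkpoint genes (median 1.47). The kinetochore list had 1 lower member, Cenpt, at 2.41 and 1.38, a difference of -1.03 ± 0.20. The Ndc80 complex joins kinetochores to microtubules, and its 4 genes were all higher, from 1.56 for Spc25 to 2.42 for Ndc80. Bub1, a kinase of the spindle checkpoint, had -0.61 and 1.90, a difference of 2.52 ± 0.21. The kinesin gene Kif2c, whose product takes microtubules apart at kinetochores, had -2.49 and 0.11, a difference of 2.59 ± 0.31. Ect2, which starts the contractile ring of cytokinesis, had 0.50 and 3.14, a difference of 2.64 ± 0.21. The mitotic cyclin genes and their kinase were all higher: Ccna2 had 2.64 and 4.47, a difference of 1.83 ± 0.20, Ccnb1 3.05 and 4.89, a difference of 1.85 ± 0.20 and Cdk1 1.35 and 3.03, a difference of 1.68 ± 0.20. Their inhibitory kinase gene Pkmyt1 was also higher, with 3.30 and 4.71, a difference of 1.41 ± 0.20.

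The D-type cyclins, which act with CDK4 and CDK6 before the start of S phase, did not share this pattern. Ccnd1 had 2.35 and 2.11, a difference of -0.24 ± 0.20, Ccnd2 4.69 and 4.25, a difference of -0.44 ± 0.20 and Ccnd3 6.61 and 6.29, a difference of -0.33 ± 0.20, so all 3 were within 2-fold. Their partner Cdk6 was higher, at -0.63 and 0.57, a difference of 1.20 ± 0.22, and Cdk4 was within 2-fold at 6.67 and 7.29, a difference of 0.61 ± 0.20. Ccne1, the cyclin of S phase entry, had 1.80 and 2.60, a difference of 0.80 ± 0.20. Of 6 compared genes of CDK inhibitors, Cdkn1c, which encodes p57, had the largest difference, with 2.80 and -0.32, a difference of -3.11 ± 0.21. Cdkn1b, which encodes p27, had 4.07 and 4.20, a difference of 0.13 ± 0.20, and Cdkn1a, which encodes p21, 4.47 and 4.51, a difference of 0.039 ± 0.20. Cdkn2c, which encodes p18, was on the opposite side at 0.63 and 1.70, a difference of 1.07 ± 0.21. Of the 6 genes, 2 were higher and 1 lower, and the other higher member differed by 1.49.

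Some regulators of these genes were higher as well, activators and repressors among them. Foxm1, an activator of mitotic genes, had 0.48 and 2.08, a difference of 1.60 ± 0.21 by its brightest probe and 0.56 by the probe with the smallest difference. Mybl2, its partner in the activating form of the MuvB complex, had 2.80 and 4.30, a difference of 1.51 ± 0.20, and the MuvB subunit Lin9 0.13 and 1.24, a difference of 1.11 ± 0.21. Of the E2F genes, E2f2 had 1.74 and 2.99, a difference of 1.25 ± 0.20, E2f7 0.72 and 1.96, a difference of 1.23 ± 0.21 and E2f8 2.23 and 3.36, a difference of 1.13 ± 0.20, whereas E2f4, the repressor of resting cells, had 0.12 and 0.12, a difference of 0.0046 ± 0.21. The pocket protein gene Rbl1 (p107) was higher at 0.96 and 2.08, a difference of 1.12 ± 0.21, Rb1 had 1.04 and 1.20, a difference of 0.17 ± 0.21 and Rbl2 (p130), the pocket protein of resting cells, -0.75 and -1.35, a difference of -0.60 ± 0.24. In all, 7 of 19 genes of this list were higher and 0 lower, with a median of 0.65.

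Promoters of mitotic genes are shown because these genes were higher together and are known to share the cell cycle genes homology region (CHR), the site of the MuvB complex, and CCAAT boxes, the site of NF-Y. The sequences are from RefSeq, build GRCm38.p6, 5′ to 3′ on the strand of the gene, and end at the base before the most upstream annotated start. Capitals mark TTTGAA (CHR) and CCAAT on either strand.
Top2a, topoisomerase II alpha, chr11:99024190-99024309, minus strand: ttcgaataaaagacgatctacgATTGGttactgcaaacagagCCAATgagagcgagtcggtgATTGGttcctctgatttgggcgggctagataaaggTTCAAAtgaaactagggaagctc
Ube2c, ubiquitin-conjugating enzyme of the anaphase-promoting complex, chr2:164769809-164769928, plus strand: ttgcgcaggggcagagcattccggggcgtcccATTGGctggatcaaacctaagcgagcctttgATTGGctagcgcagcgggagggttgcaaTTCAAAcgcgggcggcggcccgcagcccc
Ckap2l, a spindle protein, chr2:129297213-129297342, minus strand: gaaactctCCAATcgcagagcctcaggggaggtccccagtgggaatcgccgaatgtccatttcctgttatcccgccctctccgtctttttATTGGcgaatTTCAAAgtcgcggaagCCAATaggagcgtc
Cdc20, activator of the anaphase-promoting complex, chr4:118437344-118437443, minus strand: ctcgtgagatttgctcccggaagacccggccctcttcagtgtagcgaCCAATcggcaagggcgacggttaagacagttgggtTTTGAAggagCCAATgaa
Kif11, the kinesin that separates spindle poles, chr19:37376282-37376381, plus strand: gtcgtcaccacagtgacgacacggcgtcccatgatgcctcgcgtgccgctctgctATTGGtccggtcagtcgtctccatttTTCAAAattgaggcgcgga
Espl1, separase, the protease that cuts cohesin, chr15:102296193-102296292, plus strand: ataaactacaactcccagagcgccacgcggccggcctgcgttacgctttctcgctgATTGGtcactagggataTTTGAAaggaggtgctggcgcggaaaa

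In these 6 stretches the first base of the CHR nearest the start lies between positions -30 and -18, counted back from the start, and a CCAAT box lies upstream of it. The 6 are a choice of promoters with both before the start, so their spacing does not describe mitotic promoters as a group. In Plk1 and Aurka, for example, the CHR letters begin at positions 30 and 32 after the start, and the window of Bub1 has none. Top2a had 0.56 and 3.18, a difference of 2.62 ± 0.21. Ube2c had 2.502 and 4.35, a difference of 1.84 ± 0.20. For Ckap2l the levels were -2.33 and 0.077, a difference of 2.40 ± 0.29. Cdc20 had 4.47 and 5.94, a difference of 1.47 ± 0.20. The levels of Kif11 were -1.16 and 1.20, a difference of 2.35 ± 0.23. Espl1 had -0.61 and 1.37, a difference of 1.99 ± 0.21. Over windows from 250 bases before to 50 after the start, the CHR letters were in 45 of 69 promoters of mitotic, condensin and cohesin genes at least 2-fold higher in ST-HSC (65.2%), in 54 of 94 of the lists as a whole (57.4%), in 12.4% of 10117 promoters of compared genes and in 18.2% of all 27025. CCAAT was in 69.6% of the 69, against 39.1% and 38.0%. A match of letters is a description of the window and not a binding site.

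**Figure D2:**
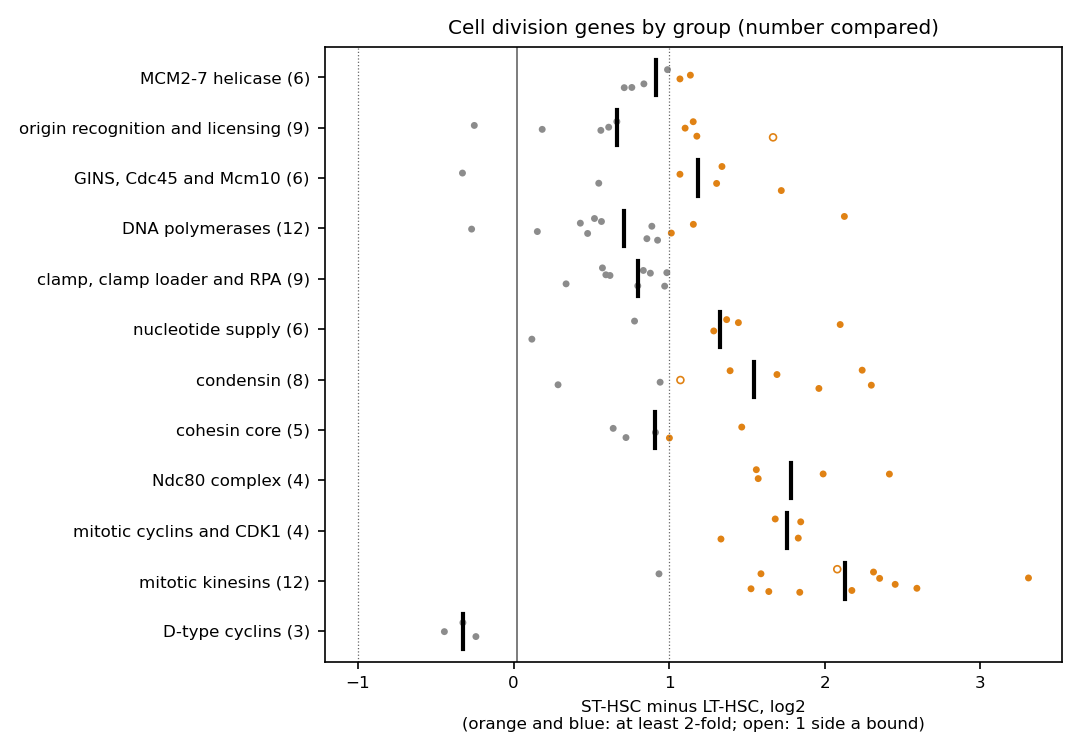
Difference of each gene between ST-HSC and LT-HSC (log2 scale, horizontal axis) for 12 groups of cell division genes, 1 point per gene, open where 1 side is a bound, with a bar at the group's median. Mitotic groups lie mostly right of the 2-fold line at 1, replication groups around it (MCM2-7 median 0.91) and the 3 D-type cyclins left of 0.

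Replication genes were higher by a smaller amount. Of 58 compared, 23 were at least 2-fold higher, 0 were lower and 54 lay above 0, with a median of 0.88. The 6 subunits of the MCM2-7 helicase ranged from 0.71 to 1.14. Factors that load and start the helicase had larger values at some members, with Mcm10 at 2.60 and 4.32, a difference of 1.72 ± 0.20 and Cdt1, the licensing factor, at 4.82 and 6.003, a difference of 1.18 ± 0.20. Gins3 differed from the other members of its complex, with 7.03 and 6.70, a difference of -0.33 ± 0.20. The sliding clamp, its loader and the single-strand binding protein RPA had 0 of 9 genes past 2-fold, from 0.34 to 0.99. Of 6 genes of nucleotide supply 4 were higher, with Rrm2, the regulated subunit of ribonucleotide reductase, at 3.18 and 4.63, a difference of 1.45 ± 0.20. Tyms, thymidylate synthase, had -1.49 and -1.37, a difference of 0.12 ± 0.27.

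Replication promoters are known for E2F sites, and 3 that hold one are shown for genes at least 2-fold higher in ST-HSC. Capitals mark TTTCGCGC, TTTGGCGC, TTTCCCGC or TTTGCCGC on either strand, which can overlap one another.
Pola1, catalytic subunit of DNA polymerase alpha, chrX:93632156-93632305, minus strand: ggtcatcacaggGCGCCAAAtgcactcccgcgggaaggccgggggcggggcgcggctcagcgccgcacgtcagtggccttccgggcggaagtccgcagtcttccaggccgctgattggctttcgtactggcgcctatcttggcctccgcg
Cdc6, which loads the helicase at origins, chr11:98908001-98908150, plus strand: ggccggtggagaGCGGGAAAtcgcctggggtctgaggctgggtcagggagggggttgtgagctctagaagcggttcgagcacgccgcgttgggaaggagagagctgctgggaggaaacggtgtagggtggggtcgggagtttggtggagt
Orc1, the largest subunit of the origin recognition complex, chr4:108579354-108579453, plus strand: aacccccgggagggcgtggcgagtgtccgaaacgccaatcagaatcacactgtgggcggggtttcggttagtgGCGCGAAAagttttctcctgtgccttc

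For these 3 genes the levels were as follows. Pola1 had 1.52 and 3.65, a difference of 2.13 ± 0.20. Cdc6 had 0.20 and 1.30, a difference of 1.103 ± 0.21. Orc1 was at -1.27 in ST-HSC and not well above background in LT-HSC, at least 3.18-fold higher. With normexp background correction Cdc6 (0.92) and Orc1 (0.67) were not past 2-fold. The E2F letters were in 8 of 18 promoters of the higher replication genes (44.4%), 16 of 48 of the list (33.3%), 4.11% of compared genes and 2.33% of all promoters. In mitotic promoters that were higher they were in 10.1%, and the CHR was in 16.7% of the higher replication promoters. Letters of other factors were counted in the same way. TTGCNNAA, of C/EBP, was in 6 of 22 granulocyte-monocyte promoters (27.3%) and 2 of the 12 that were higher (16.7%), against 8.61% of compared genes and 10.74% of all promoters. AGATAA, of GATA factors, was in 20% of 30 megakaryocyte promoters and 3 of the 19 lower ones (15.8%), against 6.84% and 11.4%. GTGGGAA, of the Notch factor RBPJ, was in 10.5% of 19 Notch pathway promoters and 0 of the 3 lower ones, against 5.95% and 6.38%.

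Chromosome structure and repair genes followed the division genes. Of 8 condensin genes 6 were higher, with Smc4 at 1.72 and 4.02, a difference of 2.30 ± 0.20 and Smc2 at 0.88 and 3.12, a difference of 2.24 ± 0.21, and of the 5 genes of the cohesin core 2 were higher, with Smc3 at 2.53 and 3.99, a difference of 1.47 ± 0.20. Esco2, the S phase acetyltransferase of cohesin, was at -1.01 in ST-HSC and not well above background in LT-HSC, at least 3.81-fold higher. Of 33 compared genes of the Fanconi and double-strand break repair list 17 were higher and 0 lower, with a median of 1.1. Rad54b, a motor protein of recombination, had -2.16 and 0.47, a difference of 2.64 ± 0.30, with 1.23 by its other probe. Fanci, a subunit of the Fanconi clamp, had 0.24 and 1.99, a difference of 1.74 ± 0.21, while Fancf, of the Fanconi core complex, had 2.55 and 2.498, a difference of -0.055 ± 0.20 and Fance 4.52 and 4.30, a difference of -0.22 ± 0.20. Of 56 histone genes compared, 17 were called higher and 3 lower (median 0.66). The linker histone gene H1f5 had 5.21 and 7.12, a difference of 1.92 ± 0.20 and H1f1 3.18 and 5.29, a difference of 2.11 ± 0.20, whereas H1f2 had 5.99 and 4.92, a difference of -1.07 ± 0.20. Histone genes are near-identical copies whose probes may share signal, so single members are uncertain. Among enzymes that copy DNA methylation, Uhrf1 had 5.18 and 6.39, a difference of 1.21 ± 0.20 and Dnmt1 2.14 and 3.02, a difference of 0.89 ± 0.20, and the de novo enzyme gene Dnmt3a had 2.52 and 2.60, a difference of 0.075 ± 0.20. Ezh2, the Polycomb methyltransferase of dividing cells, had 2.27 and 3.58, a difference of 1.32 ± 0.20 and its relative Ezh1, of resting cells, 5.01 and 4.27, a difference of -0.74 ± 0.20.

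Of 35 cytokine receptor genes compared, 7 were higher and 3 lower, with a median of 0.069, and the share that was lower was near the background. Among the lower ones, Epor, the erythropoietin receptor, had 2.82 and -0.68, a difference of -3.50 ± 0.21 and Il27ra 0.65 and -0.58, a difference of -1.24 ± 0.21. In the progenitors Epor stood at 4.84. Csf1r, the receptor of macrophage colony-stimulating factor, had 3.08 and 5.36, a difference of 2.28 ± 0.20, though its 3 probes ranged from -0.12 to 2.63. Il1r1, the interleukin-1 receptor, had -0.38 and 1.28, a difference of 1.66 ± 0.21, Il6ra 3.14 and 4.53, a difference of 1.39 ± 0.20 and Il3ra 3.12 and 4.33, a difference of 1.21 ± 0.20. The shared beta chain gene Csf2rb had 2.16 and 3.17, a difference of 1.01 ± 0.20, and this call was lost under 6 alternatives, with 0.72 by the mean over its probes. Il10ra had 0.33 and 1.45, a difference of 1.13 ± 0.21. The granulocyte receptor gene Csf3r had 6.87 and 7.13, a difference of 0.26 ± 0.20, and the interferon receptor gene Ifngr1 5.31 and 5.02, a difference of -0.29 ± 0.20. SOCS genes are induced by such receptors through STAT5 and damp them. Cish had 4.96 and 2.60, a difference of -2.37 ± 0.20, Socs2 -0.19 and -2.72, a difference of -2.53 ± 0.29 and Socs1 2.47 and 1.38, a difference of -1.08 ± 0.20, which made 3 of 8 lower and 0 higher. Socs3 had 6.33 and 5.76, a difference of -0.56 ± 0.20.

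Notch pathway genes were lower in ST-HSC for 3 targets, 1 ligand and 1 receptor. Hey1, a target that encodes a repressor, had 2.78 and -0.30, a difference of -3.08 ± 0.21, Hes1 1.67 and -1.08, a difference of -2.75 ± 0.22, and Nrarp, a feedback inhibitor, 2.15 and 0.058, a difference of -2.09 ± 0.21. The ligand gene Jag2 had 0.75 and -1.15, a difference of -1.90 ± 0.22. Of the receptors, Notch2 had 4.03 and 3.75, a difference of -0.28 ± 0.20, Notch1 -2.18 and -2.02, a difference of 0.16 ± 0.31 and Notch3 -1.94 and -3.15, a difference of -1.21 ± 0.36. The transcription factor gene Rbpj had 1.86 and 1.96, a difference of 0.11 ± 0.20. Dtx4, an E3 ligase of the Deltex family, was on the other side at 0.081 and 2.998, a difference of 2.92 ± 0.21. In all 5 of 18 compared members were lower and 1 higher, with a median of -0.48. In progenitors Hey1 and Hes1 were not well above background.

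Frizzled receptors of the Wnt pathway all lay below 0 where compared (8 of 10 on the array), from -2.08 to -0.60, and 4 of the 8 were at least 2-fold lower. Fzd4 had 2.45 and 0.38, a difference of -2.08 ± 0.21, Fzd3 0.16 and -1.57, a difference of -1.73 ± 0.23 and Fzd8 -0.013 and -1.64, a difference of -1.63 ± 0.24. Fzd9 had 3.58 and 2.76, a difference of -0.82 ± 0.20. Ryk, a Wnt receptor of another family, was at 0.69 in LT-HSC and not well above background in ST-HSC, at least 14.9-fold lower. The secreted inhibitor gene Sfrp1 had -0.62 and -2.24, a difference of -1.62 ± 0.28. Some components inside the cell were within 2-fold, with Ctnnb1, which encodes beta-catenin, at 3.81 and 3.69, a difference of -0.11 ± 0.20, Gsk3b at 3.78 and 3.93, a difference of 0.15 ± 0.20 and Dvl3 at 5.32 and 5.35, a difference of 0.034 ± 0.20. The nuclear factor Tcf7 was at -1.55 in LT-HSC and not well above background in ST-HSC, at least 3.58-fold lower by its brightest probe, though the mean over its 2 probes gave a difference of -0.15, and Tcf7l1 was at -1.33 and -3.24, a difference of -1.91 ± 0.35, while Tcf7l2 had 0.67 and 0.40, a difference of -0.27 ± 0.21. Of 35 listed genes 23 were compared, 9 were lower and 0 higher.

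Id genes, which encode inhibitors of E proteins and are targets of BMP and TGF-beta signals, were lower for all 3 compared. Id1 had 4.72 and 2.16, a difference of -2.56 ± 0.20, Id3 1.95 and 0.30, a difference of -1.66 ± 0.21 and Id2 1.26 and -0.073, a difference of -1.33 ± 0.21. The E protein genes Tcf3 and Tcf12 had 2.43 and 2.55, a difference of 0.13 ± 0.20 and 1.99 and 1.94, a difference of -0.044 ± 0.20, and Tcf4 had 1.87 and 2.75, a difference of 0.88 ± 0.20. In the TGF-beta and BMP list 5 of 24 compared genes were lower and 0 higher, with a median of -0.52. Tgfbr3, a co-receptor, had 2.47 and -0.11, a difference of -2.58 ± 0.21 and the ligand gene Tgfb3 -0.38 and -2.61, a difference of -2.23 ± 0.29. The inhibitory Smad7, itself a target, had 3.47 and 2.31, a difference of -1.17 ± 0.20. The signalling receptors and common Smads were within 2-fold, with Tgfbr2 at 3.64 and 3.36, a difference of -0.28 ± 0.20, Tgfbr1 at 0.40 and 0.90, a difference of 0.50 ± 0.21 and Smad4 at 3.81 and 3.63, a difference of -0.18 ± 0.20.

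Of 12 retinoic acid genes compared, 7 were called lower and 0 higher (median -1.17). The aldehyde dehydrogenase gene Aldh1a1, of retinoic acid synthesis, had 4.41 and 0.0096, a difference of -4.40 ± 0.21. Its level was 3.74 in progenitors and 5.44 in Lin+ cells. Aldh1a1 was not among the named genes followed through the alternative settings. Cyp26b1, which breaks retinoic acid down, was at 3.01 in LT-HSC and not well above background in ST-HSC, at least 84.1-fold lower, and its level in progenitors was -2.36. The receptor gene Rarb, a target of retinoic acid, was at 0.23 in LT-HSC and not well above background in ST-HSC, at least 12.2-fold lower, Rarg had 2.04 and 0.98, a difference of -1.06 ± 0.21 and Rara 2.89 and 2.25, a difference of -0.64 ± 0.20. Of sphingosine 1-phosphate genes, Sphk1, a kinase that makes the lipid, had 1.95 and -2.37, a difference of -4.32 ± 0.26 by its brightest probe and -2.95 by the other, with 6.43 in progenitors. Its receptor S1pr1, which guides the exit of cells from tissues, had 3.11 and 1.94, a difference of -1.17 ± 0.20, and S1pr3 -1.34 and 0.85, a difference of 2.19 ± 0.23.

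**Figure D3:**
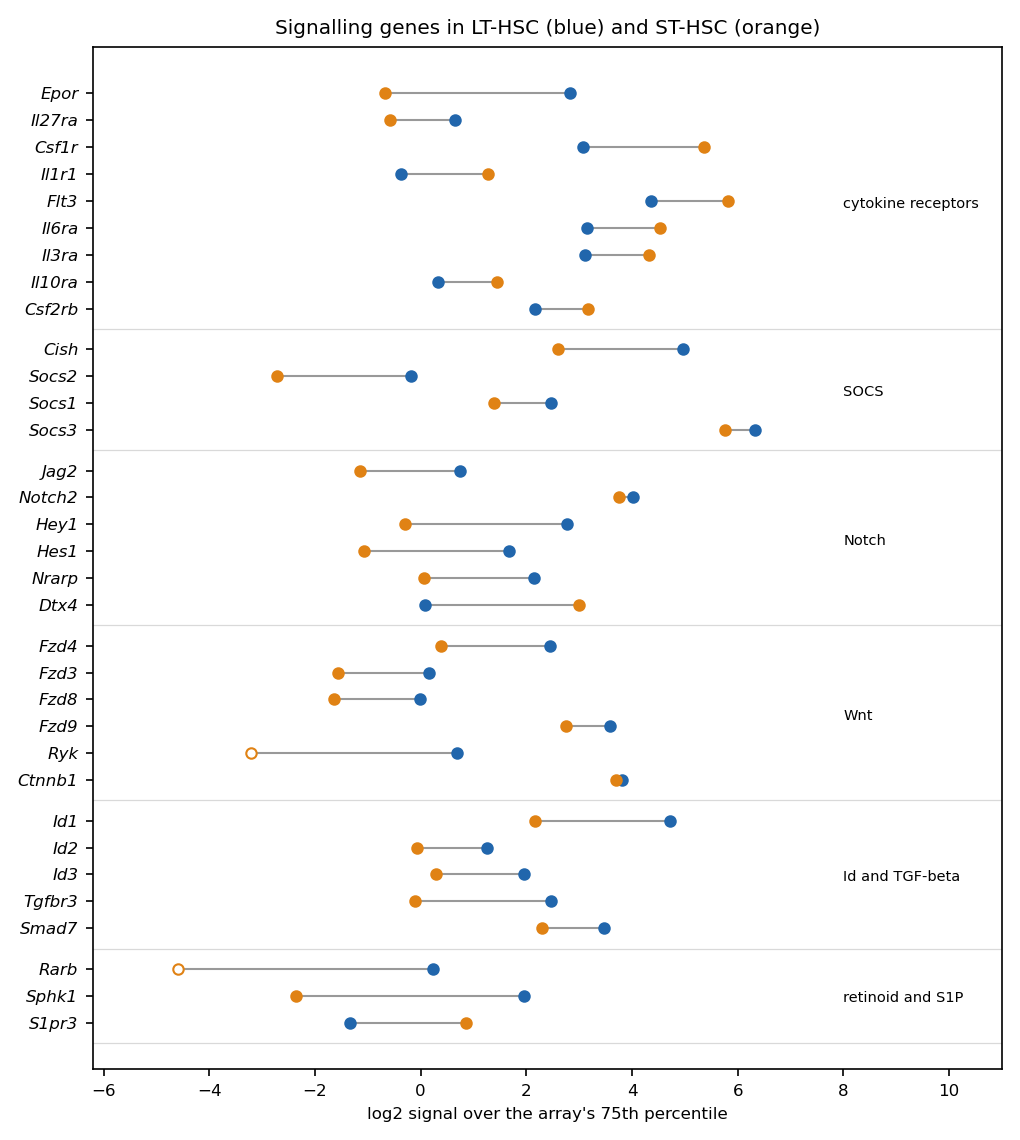
Levels in LT-HSC (blue) and ST-HSC (orange) of 33 genes of signalling, as log2 signal over the array's 75th percentile, joined by a line; an open point is not well above background. Notch targets, Id, Frizzled and SOCS genes have the blue point on the right, and the receptors Csf1r, Il1r1, Flt3 and Il6ra have the orange point on the right.

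Genes for cell junctions and shared with endothelium were lower for 11 of 19 compared and higher for 0, with a median of -1.61. The junction proteins of the JAM family and their relative ESAM hold cells together at tight junctions. Jam2 had 0.43 and -2.72, a difference of -3.14 ± 0.29, Jam3 1.93 and -0.66, a difference of -2.60 ± 0.21, F11r, which encodes JAM-A, 4.03 and 1.81, a difference of -2.22 ± 0.20 and Esam 4.19 and 1.74, a difference of -2.45 ± 0.20. In Lin+ cells none of these 4 was well above background. Tie1 had 2.20 and 0.59, a difference of -1.61 ± 0.21, and Tek, the angiopoietin receptor, was at -1.14 in LT-HSC and not well above background in ST-HSC, at least 4.74-fold lower, whereas its ligand gene Angpt1 had 4.73 and 4.67, a difference of -0.059 ± 0.20. Kdr, a VEGF receptor, had 5.23 and 5.12, a difference of -0.11 ± 0.20 by its brightest probe and -2.71 by the lowest. Erg had 2.39 and 2.42, a difference of 0.032 ± 0.20 and Egfl7 6.88 and 7.72, a difference of 0.84 ± 0.20. Cdh5, which defines endothelium, was not well above background in LT-HSC or ST-HSC. Among 15 ephrins and Eph receptors compared, 6 were called lower and 0 higher, the median being -0.29, which turns positive under spike-in scaling. The ligand gene Efna1 was at 0.61 in LT-HSC and not well above background in ST-HSC, at least 16.04-fold lower, Efnb1 had 2.51 and 1.25, a difference of -1.26 ± 0.20, and Ephb4, a receptor, -0.12 and -2.33, a difference of -2.21 ± 0.26. Semaphorins, plexins and related guidance molecules gave 9 lower and 0 higher of 27 (median -0.26, also positive under spike-in scaling), with Sema7a at 2.05 and -0.99, a difference of -3.04 ± 0.22 and its receptor Plxnc1 at 3.07 and 1.62, a difference of -1.45 ± 0.20. Slit2 was at 0.019 in LT-HSC and not well above background in ST-HSC, at least 10.6-fold lower and its receptor Robo4 had 4.60 and 3.44, a difference of -1.15 ± 0.20.

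Adhesion and homing genes differed in both directions. Itgb3 had 3.17 and 0.93, a difference of -2.24 ± 0.20 and its platelet partner Itga2b 2.06 and 0.92, a difference of -1.14 ± 0.21. Itgal, a leukocyte integrin, had -0.88 and 0.92, a difference of 1.80 ± 0.22 and Itgax -2.61 and -0.39, a difference of 2.22 ± 0.35, while Itga4 and Itgb1, the VLA-4 pair, had 3.25 and 3.85, a difference of 0.61 ± 0.20 and 0.82 and 1.29, a difference of 0.47 ± 0.21. Cxcr4, the receptor that holds stem cells in marrow, had 2.29 and 2.49, a difference of 0.20 ± 0.20. The monocyte chemokine receptor genes differed: Cx3cr1 had -1.94 and 1.42, a difference of 3.36 ± 0.29 (1.86 by another probe) and Ccr2 -2.17 and -0.58, a difference of 1.59 ± 0.29. Tetraspanins gave 4 lower and 2 higher of 20. Tspan33 had 3.33 and 1.06, a difference of -2.27 ± 0.20, Cd9 4.67 and 3.25, a difference of -1.42 ± 0.20, Cd53 0.35 and 1.91, a difference of 1.56 ± 0.21 and Tspan2 0.24 and 2.11, a difference of 1.87 ± 0.21.

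Genes of blood lineages divided by lineage. Of 23 genes of granulocyte-monocyte progenitors compared, 16 were called higher and 0 lower (median 1.82). The megakaryocyte list gave 23 lower and 0 higher of 34 (median -1.69), and the erythroid list 12 lower and 1 higher of 23 (median -1.11). Lymphoid priming, with 14 genes compared, gave 7 higher and 0 lower (median 0.90). Among granule proteases, Prtn3, proteinase 3, had 3.27 and 4.997, a difference of 1.72 ± 0.20, Elane, neutrophil elastase, 1.16 and 4.12, a difference of 2.96 ± 0.21 and Ctsg, cathepsin G, 2.45 and 8.20, a difference of 5.74 ± 0.20. Ms4a3, a marker of granulocyte-monocyte progenitors, had 0.31 and 3.46, a difference of 3.15 ± 0.21. Cst7, a cystatin, had 1.77 and 4.38, a difference of 2.61 ± 0.20, and Igsf6 -2.02 and 2.18, a difference of 4.20 ± 0.29. Lyz2, lysozyme, had 1.31 and 0.92, a difference of -0.39 ± 0.21. Hp, haptoglobin, had -0.029 and 3.89, a difference of 3.92 ± 0.21, and Ly86, a partner of a Toll-like receptor relative, -0.42 and 3.46, a difference of 3.88 ± 0.21. F13a1, factor XIII A, had -1.96 and 4.50, a difference of 6.46 ± 0.26 by its brightest probe and 0.84 by the other, so its size is uncertain. Rag2, of the recombinase of antigen receptors, had -2.496 and -0.89, a difference of 1.61 ± 0.31, which became 0.62 by the mean over its 2 probes and 0.78 under normexp, and Mef2c, a lymphoid and myeloid regulator, -0.013 and 1.17, a difference of 1.19 ± 0.21.

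The platelet genes included both surface receptors and enzymes. Gp1bb, of the von Willebrand factor receptor, had 0.21 and -2.69, a difference of -2.90 ± 0.29, Gp1ba 0.24 and -1.95, a difference of -2.18 ± 0.24, Gp9 4.57 and 2.21, a difference of -2.36 ± 0.20 and Gp5 0.78 and -1.28, a difference of -2.06 ± 0.23. Tbxas1, thromboxane synthase, had 5.15 and 3.19, a difference of -1.96 ± 0.20 and Ptgs1, the cyclooxygenase before it, 4.20 and 2.46, a difference of -1.74 ± 0.20. F2r, a thrombin receptor, had 5.57 and 3.93, a difference of -1.64 ± 0.20. Tbxa2r, the thromboxane receptor, had 1.92 and 1.89, a difference of -0.032 ± 0.20, Selp, P-selectin, 0.74 and 1.08, a difference of 0.34 ± 0.21 and Plek, pleckstrin, 3.93 and 4.55, a difference of 0.63 ± 0.20. The regulators of these cells were lower too, with Gata1 at 4.83 and 2.69, a difference of -2.14 ± 0.20, its cofactor Zfpm1 at 6.48 and 4.90, a difference of -1.58 ± 0.20 and Gfi1b at 5.01 and 3.33, a difference of -1.67 ± 0.20, while Fli1 and Nfe2 had 4.22 and 3.73, a difference of -0.50 ± 0.20 and 6.71 and 6.26, a difference of -0.45 ± 0.20. Klf1, the red cell factor, had 0.29 and -2.55, a difference of -2.84 ± 0.30. Among erythroid genes, Tspo2 had 2.90 and -0.98, a difference of -3.88 ± 0.22, Icam4 2.29 and 1.16, a difference of -1.13 ± 0.20 and Tfrc, the transferrin receptor, -0.29 and 0.19, a difference of 0.49 ± 0.21. Alas2, an end-stage gene, was not well above background in either fraction. Hba-a1, a globin gene, had -1.22 and -2.02, a difference of -0.80 ± 0.27.

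The levels in the other fractions divided the genes that were lowest in ST-HSC. Some megakaryocyte and erythroid genes had high levels again in c-Kit+Lin- progenitors: Vwf stood at 4.45, Pf4 at 7.92, Car1 at 5.87 and Gata1 at 6.15. The metallothionein gene Mt2 stood at 8.17 there. Pf4, platelet factor 4, had 6.30 and 2.499, a difference of -3.80 ± 0.20, and Car1, a carbonic anhydrase of early red cells, 3.09 and -2.54, a difference of -5.63 ± 0.28. Other genes stayed low in progenitors and Lin+ cells. Tcf15, a transcription factor of resting stem cells, had 2.32 and -1.69, a difference of -4.004 ± 0.22, then -1.63 in progenitors and -1.91 in Lin+ cells. Hoxb5, a marker of long-term stem cells, was at 0.64 in LT-HSC and not well above background in ST-HSC, at least 16.3-fold lower, and was not well above background in progenitors or Lin+ cells. For Procr the later levels were -0.52 in progenitors and not well above background in Lin+ cells. Evc2, of Hedgehog signalling at cilia, was at 2.14 in LT-HSC and not well above background in ST-HSC, at least 46.0-fold lower by its brightest probe, with a bound of -1.06 on the log2 scale by another, and Clip3 at 1.80 in LT-HSC and not well above background in ST-HSC, at least 36.5-fold lower, with neither above background in the later fractions.

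**Figure D4:**
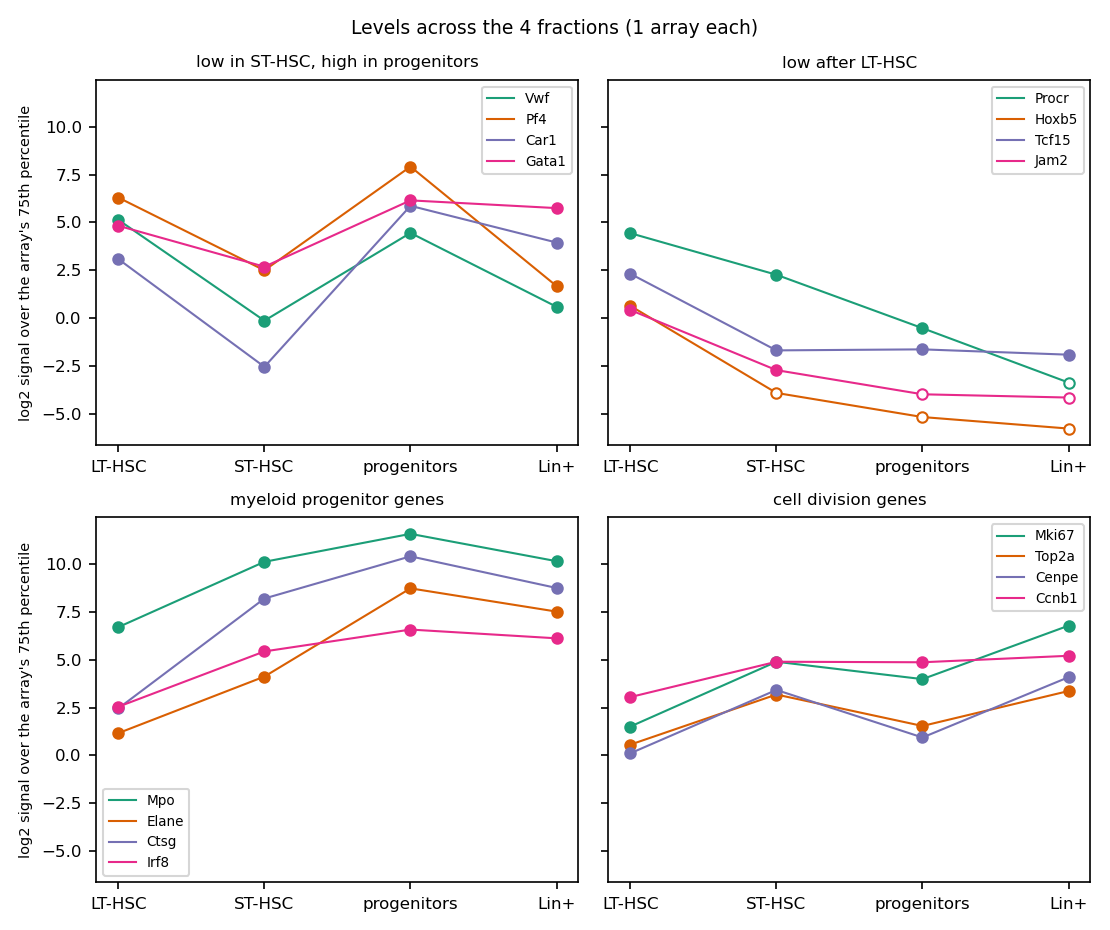
Levels of 16 genes across the 4 fractions, as log2 signal over the array's 75th percentile, 1 array each, in 4 panels of 4 genes; open points are not well above background. Vwf, Pf4, Car1 and Gata1 are lower in ST-HSC and high again in progenitors, whereas Hoxb5, Tcf15 and Jam2 stay low after LT-HSC. Procr falls in ST-HSC and falls further in progenitors.

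Of 43 transcription factors of stem and progenitor cells compared, 15 were called lower and 3 higher, with Irf8, given below, the highest. Prdm16 had 1.81 and -0.46, a difference of -2.26 ± 0.21, Nkx2-3 3.15 and 0.91, a difference of -2.24 ± 0.20, Mycn 3.62 and 1.56, a difference of -2.06 ± 0.20, Gata2 5.56 and 3.83, a difference of -1.73 ± 0.20 and Gata3 1.81 and 0.17, a difference of -1.64 ± 0.21. Myc, the relative of Mycn, had 4.20 and 4.41, a difference of 0.21 ± 0.20. Other factors of the stem cell programme were within 2-fold: Runx1 had 3.78 and 3.83, a difference of 0.051 ± 0.20, Lmo2 7.74 and 7.24, a difference of -0.50 ± 0.20, Lyl1 7.18 and 7.50, a difference of 0.32 ± 0.20 and Meis1 6.53 and 5.63, a difference of -0.90 ± 0.20. Tal1 had 5.26 and 4.16, a difference of -1.099 ± 0.20. Of the C/EBP family, which directs granulocyte fate, Cebpa had -0.078 and 1.77, a difference of 1.85 ± 0.21, Cebpe -0.59 and 1.23, a difference of 1.82 ± 0.22 and Cebpd 2.79 and 3.85, a difference of 1.06 ± 0.20, while Cebpb had 6.02 and 5.33, a difference of -0.69 ± 0.20. Irf8, the monocyte and dendritic factor, had 2.54 and 5.43, a difference of 2.89 ± 0.20, and Spi1, which encodes PU.1, -0.75 and -0.18, a difference of 0.56 ± 0.22. Hmga2 had 0.56 and 1.70, a difference of 1.14 ± 0.21. Krueppel-like factors gave 6 lower and 0 higher of 14, with Klf4 at 4.75 and 2.89, a difference of -1.86 ± 0.20, Klf2 at 7.42 and 6.21, a difference of -1.21 ± 0.20 and Klf6 at 6.81 and 6.65, a difference of -0.16 ± 0.20.

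Hox genes gave 9 lower and 0 higher of 14 compared, and 25 of 39 on the array were above background in neither fraction. Hoxb2 had 0.95 and -2.10, a difference of -3.05 ± 0.25, Hoxb3 -0.86 and -2.65, a difference of -1.79 ± 0.28 and Hoxb4 2.15 and 1.21, a difference of -0.94 ± 0.20. In the A cluster Hoxa5 had 1.83 and -0.34, a difference of -2.17 ± 0.21 and Hoxa10 0.63 and -0.91, a difference of -1.54 ± 0.22, while Hoxa9 and Hoxa7 had 0.061 and -0.33, a difference of -0.39 ± 0.21 and 4.01 and 3.98, a difference of -0.025 ± 0.20.

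Imprinted genes, which are expressed from 1 parental copy and include a network tied to stem cell rest and growth control, were lower for 12 of 20 compared and higher for 2, with a median of -1.101. Grb10, an inhibitor of growth factor receptors, had 0.96 and -1.998, a difference of -2.96 ± 0.25, Ndn -0.0014 and -2.27, a difference of -2.26 ± 0.26, Phlda2 -0.038 and -2.29, a difference of -2.25 ± 0.26 and Dlk1 0.37 and -1.62, a difference of -1.99 ± 0.23. From the Dlk1 locus, Meg3 was at -2.29 in LT-HSC and not well above background in ST-HSC, at least 2.14-fold lower and Mirg at -2.28 in LT-HSC and not well above background in ST-HSC, at least 2.15-fold lower. The higher members were Peg10, at -0.78 in ST-HSC and not well above background in LT-HSC, at least 4.47-fold higher by its brightest probe and at a difference of 0.041 by the mean over its 2 probes, and Kcnq1ot1, with -2.14 and -0.43, a difference of 1.70 ± 0.30. Igf2r had 0.85 and 0.19, a difference of -0.66 ± 0.21 and Gnas 6.01 and 5.99, a difference of -0.017 ± 0.20.

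Of the detoxification genes, glutathione transferases gave 6 lower and 0 higher of 19, the median being -0.73. Gstm2 had 1.94 and -0.96, a difference of -2.91 ± 0.22 by its brightest probe and -0.73 by the probe with the smallest difference. Gstt1 had 3.41 and 0.92, a difference of -2.49 ± 0.20, Gsta4 -0.15 and -1.44, a difference of -1.30 ± 0.23 and Gstp1 4.16 and 4.36, a difference of 0.20 ± 0.20. The mu-class genes are close copies, so single members are uncertain. Sult1a1, a sulfotransferase, had 3.96 and -0.998, a difference of -4.96 ± 0.22, and Ces2g, a carboxylesterase, 1.54 and -2.51, a difference of -4.05 ± 0.29. ABC transporters gave 4 lower and 1 higher of 31, near the background, and Abcb4 had 3.41 and 1.81, a difference of -1.59 ± 0.20 and Abcg2, the pump behind the side population of stem cells, 4.54 and 3.47, a difference of -1.06 ± 0.20. The metallothionein genes had 4.80 and 2.27, a difference of -2.53 ± 0.20 for Mt2 and 6.001 and 4.72, a difference of -1.28 ± 0.20 for Mt1. Of 29 antioxidant enzyme genes 3 were called lower, again near the background, with Srxn1 at 3.06 and 1.71, a difference of -1.35 ± 0.20 and Nqo1 at -0.25 and -1.58, a difference of -1.33 ± 0.24, and Sod1 and Gpx1 had 8.04 and 8.08, a difference of 0.040 ± 0.20 and 8.33 and 8.85, a difference of 0.52 ± 0.20.

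Energy and growth genes differed little per gene, with many members on 1 side. Mitochondrial ribosomal protein genes lay above 0 for 71 of 74 compared, with a median of 0.23 and 0 past 2-fold, and 70 of 77 genes of oxidative phosphorylation did (median 0.25). Ribosome biogenesis genes lay above 0 for 37 of 38, with a median of 0.31 and 0 past 2-fold. Cytosolic ribosomal protein genes lay above 0 for 17 of 79 (median -0.064, positive under spike-in scaling). Cholesterol synthesis genes lay above 0 for 3 of 23, with a median of -0.38. These counts are against 0, whereas the median of all genes compared was 0.030, and 0.33 under spike-in scaling. Read against the median gene, the cytosolic ribosomal list changed side under some alternatives and the other lists did not. In glycolysis the isoforms differed: Aldoc had 4.93 and 3.19, a difference of -1.74 ± 0.20 and Aldoa 8.29 and 8.07, a difference of -0.22 ± 0.20, Eno2 -0.40 and -2.32, a difference of -1.91 ± 0.26 and Eno1 6.29 and 6.43, a difference of 0.13 ± 0.20, Ldhb 5.28 and 4.28, a difference of -1.002 ± 0.20 and Ldha 8.71 and 8.66, a difference of -0.059 ± 0.20, and the myeloid hexokinase gene Hk3 1.90 and 3.83, a difference of 1.93 ± 0.20 and Hk1 6.21 and 5.75, a difference of -0.46 ± 0.20. Pdk4, which keeps pyruvate out of mitochondria, was at -1.57 in LT-HSC and not well above background in ST-HSC, at least 3.53-fold lower, and Hif3a had 1.47 and -0.91, a difference of -2.38 ± 0.21. Hif1a, a factor of the hypoxic niche, had -0.49 and 0.050, a difference of 0.54 ± 0.22.

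**Figure D5:**
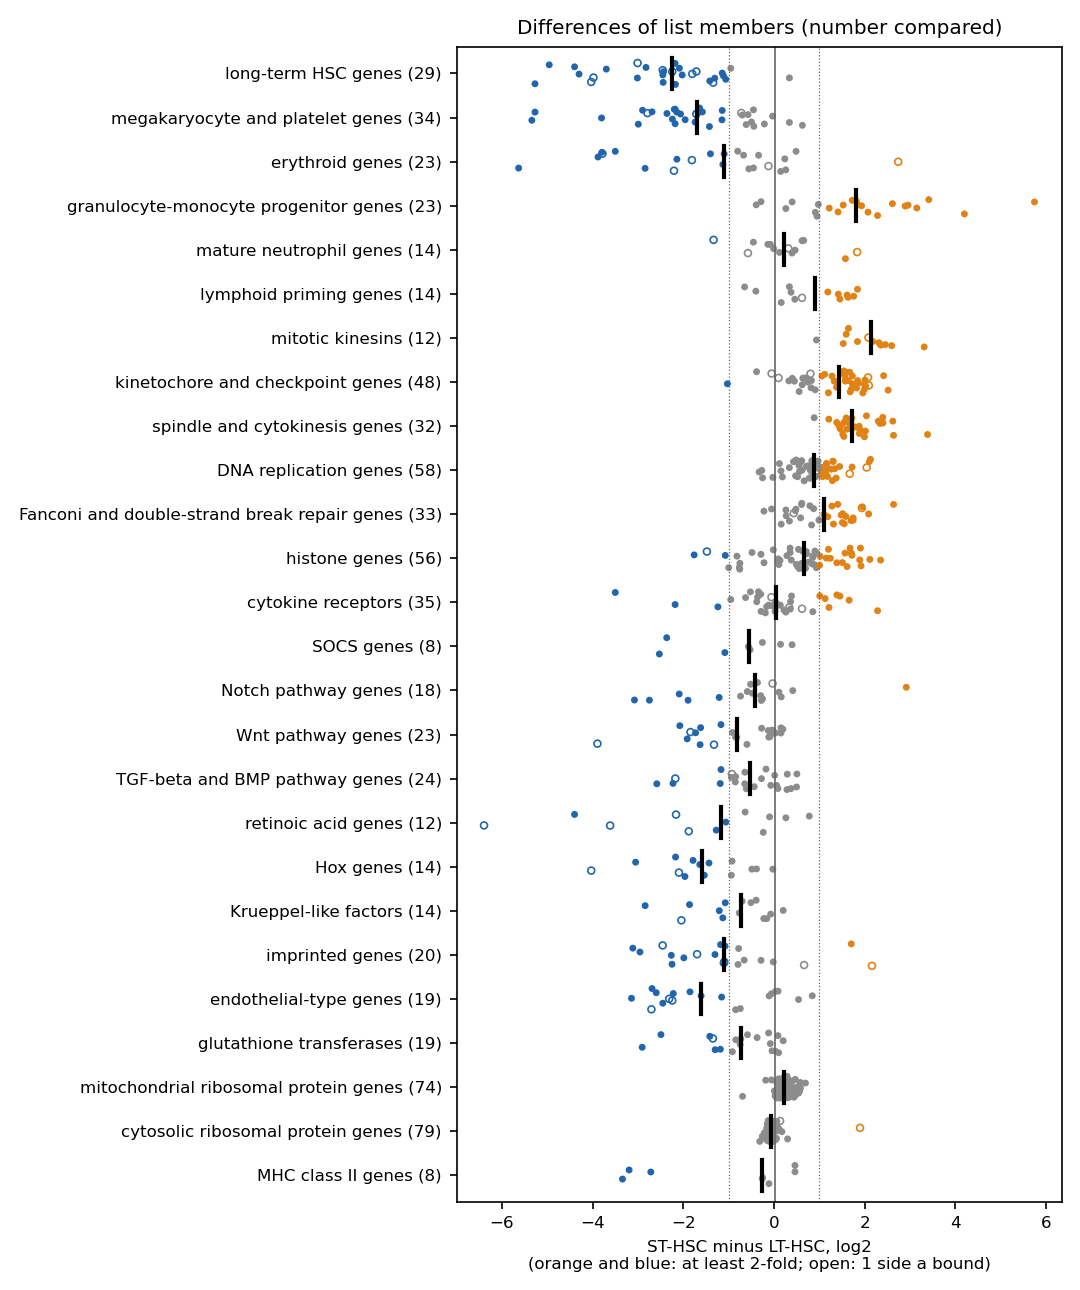
Difference between ST-HSC and LT-HSC (log2 scale, horizontal axis) of each compared gene in 26 lists, 1 point per gene, open where 1 side is a bound, with a black bar at the list's median and a grey line at the median of all genes compared (0.030). Lists of mitosis and myeloid progenitors lie to the right of the line and the long-term stem cell, megakaryocyte and Hox lists to the left.

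Antigen presentation and immune genes showed single members far apart from their families. Of 8 compared MHC class II genes 3 were lower: Cd74, the invariant chain, had 2.58 and -0.76, a difference of -3.34 ± 0.21, H2-Aa 0.42 and -2.77, a difference of -3.20 ± 0.31 and H2-Eb1 3.45 and 0.73, a difference of -2.72 ± 0.21. H2-Ab1, the partner of H2-Aa, had 4.78 and 4.52, a difference of -0.26 ± 0.20, and H2-DMa, which loads peptides, 3.81 and 4.28, a difference of 0.46 ± 0.20. All 11 class I genes were within 2-fold, with B2m at 8.50 and 8.24, a difference of -0.25 ± 0.20. Interferon-stimulated genes lay below 0 for 26 of 33, with a median of -0.39 that ran from -0.45 to -0.079 over the settings. Of the 33, 3 were lower and 1 higher, and the share that was lower was near the background. Of 22 immediate-early genes 7 were called lower and 0 higher, with Nr4a2 at 3.95 and 2.47, a difference of -1.48 ± 0.20, Egr1 at 7.81 and 6.69, a difference of -1.12 ± 0.20 and Fosl2 at 5.59 and 4.17, a difference of -1.42 ± 0.20, while Fos and Jun had 7.07 and 7.17, a difference of 0.10 ± 0.20 and 8.24 and 8.25, a difference of 0.011 ± 0.20.

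Markers of other cell types were read on both arrays. Of 18 B cell genes on the array 6 were well above background in LT-HSC and 4 in ST-HSC, with summed signals of 20.0 and 20.9 in units of the 75th percentile, against 554 in Lin+ cells. The defining genes Cd79a and Ms4a1 were not well above background in either stem cell fraction. Of 25 T and NK cell genes 14 and 11 were above background (sums 34.4 and 33.9). Cd3d and Ncr1 were not, and Cd3e, of the T cell receptor complex, had 2.002 and 2.02, a difference of 0.018 ± 0.20. Gzmb, a granzyme, was at -0.21 in LT-HSC and not well above background in ST-HSC, at least 7.98-fold lower and Klrb1c, which encodes NK1.1, had 0.18 and -2.35, a difference of -2.53 ± 0.28. Of 8 plasma cell genes 7 and 4 were above background (sums 46.8 and 44.4), with Jchain at -1.34 in LT-HSC and not well above background in ST-HSC, at least 4.14-fold lower and Mzb1 at -0.69 in LT-HSC and not well above background in ST-HSC, at least 6.48-fold lower. Ly6d, a lymphoid marker, was at 0.82 in LT-HSC and not well above background in ST-HSC, at least 18.4-fold lower. The part of lymphoid cells in these differences and in those of the class II genes was not tested.

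Of 22 mature neutrophil genes 12 were above background in each fraction, with sums of 20.9 and 25.4 against 9902 in Lin+ cells. Ngp was not above background in either, Camp had -0.96 and -0.84, a difference of 0.12 ± 0.22, and S100a8 0.93 and 0.48, a difference of -0.46 ± 0.21. Camp and S100a8, genes of mature neutrophils, thus did not share the difference of Ctsg and Elane. Of 14 compared genes of this list 2 were higher, Cxcr2, at -1.11 in ST-HSC and not well above background in LT-HSC, at least 3.56-fold higher, and Ltb4r1, with 1.26 and 2.83, a difference of 1.57 ± 0.20, and 1 was lower, Retnlg, at -1.65 in LT-HSC and not well above background in ST-HSC, at least 2.52-fold lower. Of 23 monocyte and macrophage genes 12 and 12 were above background (sums 40.0 and 111.3), and of 13 compared 6 were higher and 1 lower. The higher ones were F13a1, Csf1r, Cx3cr1 and Ccr2, given above, Mpeg1, with 0.35 and 2.87, a difference of 2.52 ± 0.21, and Ms4a6c, with 1.20 and 3.11, a difference of 1.90 ± 0.20, and the lower one was Vcam1, at -1.90 in LT-HSC and not well above background in ST-HSC, at least 2.81-fold lower. C1qa was dim in both and Cd14 had -0.81 and -0.0024, a difference of 0.81 ± 0.22. Of 19 basophil, mast cell and eosinophil genes 8 and 12 were above background (sums 7.27 and 15.5). Of 13 compared 3 were higher and 2 lower, from -2.28 to 3.96, with a median of 0.0020. Mcpt8, a basophil protease, was at 1.02 in ST-HSC and not well above background in LT-HSC, at least 15.6-fold higher, and Hdc, which makes histamine, had 0.072 and 2.66, a difference of 2.59 ± 0.21. Of 17 stromal and endothelial genes 5 and 4 were above background (sums 28.5 and 27.6). Cxcl12, the chemokine of stroma, was at -0.044 in LT-HSC and not well above background in ST-HSC, at least 10.2-fold lower by its brightest probe, with a bound of -0.81 on the log2 scale by another, and Lepr had 4.33 and 4.35, a difference of 0.025 ± 0.20. The part of these cell types in the results was not tested.

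Several of the largest bounds were of genes with little known role in blood cells. Xkr6 was at 0.33 in ST-HSC and not well above background in LT-HSC, at least 9.67-fold higher, Rhox5 at 0.086 in ST-HSC and not well above background in LT-HSC, at least 8.15-fold higher and Mmp1b at 0.20 in ST-HSC and not well above background in LT-HSC, at least 8.84-fold higher, and none of the 3 was above background in progenitors or Lin+ cells. Lor, loricrin of skin, was at 1.34 in LT-HSC and not well above background in ST-HSC, at least 26.6-fold lower and Trh, thyrotropin-releasing hormone, at 1.26 in LT-HSC and not well above background in ST-HSC, at least 24.4-fold lower. These calls rest on 1 probe and 1 array each.

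Some of the calls given above were within 2-fold under another setting. Under spike-in scaling these were Abcg2, Cenpt, Efnb1, Egr1, Gsta4, H1f2, Icam4, Il27ra, Itga2b, Klf2, Ldhb, Meg3, Mirg, Mt1, Notch3, Rarg, Robo4, S1pr1, Smad7, Socs1 and Tal1. Under normexp they were Ccr2, Cdc6, Cdk6, Cenpt, Csf2rb, Cxcr2, Esco2, Fzd8, Gsta4, Hoxb3, Il27ra, Kcnq1ot1, Ldhb, Lin9, Mef2c, Meg3, Mirg, Notch3, Nqo1, Orc1, Pdk4, Rag2, Rarg, Retnlg, S1pr1, Sfrp1, Socs1, Tcf7l1, Tek and Vcam1. By the mean over probes they were Csf2rb, E2f7, Peg10, Rag2, Rbl1, Tcf7 and Vcam1.

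Probes named by a genomic interval and no gene gave a further set of values. Of 16193 such probes 4231 were compared, 265 (6.26%) were higher in ST-HSC by 2-fold or more and 277 (6.55%) lower. Intervals are those of the array design, build mm9, and their annotation was not used here. Both probes of chr17:34018371-34019394 were higher in ST-HSC, 1 with levels of 0.75 and 2.92, a difference of 2.17 ± 0.21, and the other with 0.21 and 2.34, a difference of 2.13 ± 0.21. Both probes of chr4:127020290-127020504 were lower, with 0.21 and -2.52, a difference of -2.73 ± 0.27, and with 0.86 and -1.71, a difference of -2.57 ± 0.23. The lowest measured difference was at chr3:152810906-152815072, with levels of 0.59 and -3.06, a difference of -3.65 ± 0.34.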

How the data were processed

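RNA of 4 sorted fractions was measured on 4 arrays, 1 per fraction, and each is labelled replicate 1. Each scanner file gives linear spot intensity after background subtraction within its array by Agilent Feature Extraction 10.7.1.1, per the file headers and the submitters' processing notes. The authors also deposited a value table of linear ratios, equal within 1% for 100% of probes to that intensity over 1 constant per array (191, 217, 137 and 230, beside the 75th percentiles of 192, 217, 137 and 230). This settles its scale and direction, and the columns had medians of 0.0619, 0.0630, 0.0704 and 0.0738.

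Control and outlier spots were left out, spots of 1 probe averaged as log2, and each array's 75th percentile over all non-control probes subtracted. Of 55681 probes 55678 were used, from 40.9% to 45.9% were well above background on an array, and 0 spots were saturated. Where 1 side was not well above background, its value or the lowest value above background on that array, whichever was higher, set a bound on the fold. Probes were named by accession through the RefSeq table of GRCm38.p6: 26762 (48.1%) gave 20284 genes, and the brightest probe stood for a gene. Calling was tested on simulated data with known folds and added spot error, for genes measured on both arrays. That simulation did not cover bounds or variation between samples of a fraction. Python 3.11.15, R 4.3.3 and limma 3.58.1 were used.

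The gene lists (72, with 1786 of 1806 symbols on the array) and members were chosen with earlier results of these data known, and the role groups, the newer histone symbols and the RBPJ, C/EBP and GATA letters after the values were seen. Bounds count in list medians at their bound. Named were the sorting genes and markers, the 10 largest and smallest differences and 8 largest bounds each way, and list members: those measured where 8 or fewer, otherwise called ones, largest first, and those of defining role. Not every gene so allowed is printed, and some results are not reported here. Alternatives were other scalings, background corrections, probe rules, filters and fold thresholds of 1.5 and 3.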

Additional observations from a re-analysis of the deposited data

How the results depend on the processing

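No paired analysis was possible because every sample is labelled replicate 1 and each fraction has 1 array, and for the same reason no array could be left out. The counts of 733 higher and 1136 lower genes became 1694 and 2007 at a threshold of 1.5-fold (45.8% higher) and 305 and 593 at 3-fold (34.0%). Without background filter and floor they were 1166 and 1763, and with both arrays above background 545 and 746 (42.2%). Spike-in scaling gave 1326 higher and 63.0% of calls higher. Normexp was run on the median spot signal, an alternative chosen after seeing the data because the planned mean-signal column is not in the files used here; it gave 452 and 612 (42.5%). The 75th percentile over probes detected on all 4 arrays gave 35.01% higher, and over those detected on both KSL arrays 35.4%. Spike-in scaling moved the differences to 1.496 for Cd34, -1.86 for Procr, -4.96 for Vwf and 3.72 for Mpo, quantile normalization gave 3.18 for Mpo, and normexp -4.77 for Vwf; for the scalings and normexp the cause was not tested. Of 205 named genes past 2-fold, 159 were past it under each of the 12 settings that gave them a value (174 had a value under all 12, and 31 had none under at least 1), 30 were not under normexp and 21 were not under spike-in scaling; none turned to the other side of 0. Cd34 was under 2-fold with quantile normalization (0.985). Of 864 list medians under the alternatives, 53 in 27 lists had the opposite sign, 14 of them under spike-in scaling. Of lists with a median of 2-fold or more, 1 did: stromal and endothelial genes gave 0.025 with both arrays above background, where fewer genes were compared. Of the 20284 genes, 7667 were above background on neither array and could not be compared.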
